A study of Mus musculus with 2 samples.

Results

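The cellular oxygen-sensing machinery was followed here as 9 genes in every cell class of the mouse kidney after ischemia: the prolyl hydroxylases Egln1 (PHD2), Egln2 (PHD1) and Egln3 (PHD3), the alpha subunits Hif1a, Epas1 (HIF-2α) and Hif3a, the shared partner Arnt (HIF-1β), the ubiquitin ligase subunit Vhl and the asparaginyl hydroxylase Hif1an (FIH). They were taken by symbol, with earlier results of these data known, and all 9 were found among the 32285 genes listed. The 2 libraries were single-cell RNA preparations (10X Genomics, 3′ ends, unique molecular identifiers) of the postischemic kidney of male mice aged 8 to 10 weeks at surgery, on day 14 after 25 minutes of clamping of 1 renal pedicle. One came from a Cre- littermate, the other from a PHDTiEC mouse, in which Cdh5(PAC)-CreERT2 was meant to remove floxed Phd1, Phd2 and Phd3 from endothelial cells (EC). Tamoxifen, in 4 doses of 3 mg, was given after the injury in the study's protocol for both genotypes. With 1 library per genotype no difference could be tested between mice, so no p-value is given. Every interval is a 95% counting interval (exact Poisson for a level, exact binomial for a ratio or share) that leaves out the spread between animals. Intervals on UMIs treat each UMI as independent, so they also leave out the spread between barcodes.

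In oxygenated cells the PHD enzymes hydroxylate prolines of the HIF alpha subunits, which VHL then marks for degradation. When the enzymes are inactive, the alpha subunits accumulate, pair with ARNT and bind target genes. Egln1 and Egln3 are themselves known targets of HIF, while Egln2 is not regarded as one. FIH hydroxylates an asparagine that blocks coactivator binding. In the kidney, HIF-2α is known from endothelial and interstitial cells and HIF-1α from tubular cells. The abundance of the alpha-subunit transcripts says little of protein, which is set by degradation.

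The filters kept 8548 barcodes of the Cre- library and 9309 of the library labelled PHDTiEC, with medians of 7500 and 7898 UMIs. In these barcodes 28 sequences occurred in both libraries, 0.328% and 0.301% of them. Graph clustering without the 9 genes, or the HIF target and pathway genes described below, gave 28 clusters, of which 16 classes could be named from marker lists, and the endothelial-like class held 340 Cre- and 457 PHDTiEC barcodes with medians of 5885.5 and 6036.0 UMIs. All 8 endothelial markers were present in it, with a summed level of 4502 CPM in the Cre- library and 5280 CPM in the other, where CPM is the UMIs of a gene divided by all UMIs of the class and multiplied by 1000000. Markers of other cells were present too. The 6 markers of the thick ascending limb (TAL) summed to 1943 CPM in Cre- and 479 CPM in PHDTiEC endothelial-like barcodes, the 8 macrophage markers to 638 and 789 CPM, and the 5 erythroid markers to 396 and 757 CPM. Values without such barcodes are therefore given beside the main ones.

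Because the 3 sensor genes behaved differently in EC, the bases before their RefSeq transcription starts (GRCm38.p6) are shown 5′ to 3′ on the coding strand. Capitals mark ACGTG or GCGTG on either strand, the core letters of the hypoxia response element. Egln1 (ENSMUSG00000031987, chr8:124949325-124949504, minus strand) is cut where the longer GENCODE transcript begins, Egln2 (ENSMUSG00000058709) is shown over chr7:27166803-27167052 and Egln3 (ENSMUSG00000035105) over chr12:54203875-54204124, both on the minus strand.
Egln1: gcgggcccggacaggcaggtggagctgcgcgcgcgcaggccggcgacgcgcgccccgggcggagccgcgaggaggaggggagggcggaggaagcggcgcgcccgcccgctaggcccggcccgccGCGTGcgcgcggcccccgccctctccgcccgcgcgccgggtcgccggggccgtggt
Egln2: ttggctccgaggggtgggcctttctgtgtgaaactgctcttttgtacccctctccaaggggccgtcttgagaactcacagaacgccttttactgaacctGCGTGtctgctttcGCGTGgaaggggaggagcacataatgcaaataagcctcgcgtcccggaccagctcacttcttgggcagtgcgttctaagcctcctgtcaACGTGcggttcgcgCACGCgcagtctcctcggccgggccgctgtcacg
Egln3: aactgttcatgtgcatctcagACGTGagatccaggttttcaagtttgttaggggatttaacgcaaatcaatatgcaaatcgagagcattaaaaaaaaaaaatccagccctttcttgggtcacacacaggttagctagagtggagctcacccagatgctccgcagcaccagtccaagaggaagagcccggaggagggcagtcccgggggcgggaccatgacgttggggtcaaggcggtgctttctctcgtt
Over the full 250 bases the core occurred 2 times for Egln1, 4 times for Egln2 and 1 time for Egln3, each occurrence counted per strand, and overlapping ones separately. Of 32526 distinct mouse promoter windows of that length, 16.8% held at least 2 occurrences, 2.61% at least 4 and 38.8% at least 1. The table has a further Egln2 start, whose window (chr7:27165729-27165978) held 1 occurrence. No reading about the factor follows from letters alone.

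The floxed genes were examined first, since the label names them. In endothelial-like cells none of the 3 was absent from the library labelled PHDTiEC. Egln1 stood at 65.3 CPM (57.4 to 74.0, 246 UMIs) in Cre- and 179.9 CPM (168 to 193, 802 UMIs) in PHDTiEC endothelial-like cells. This is 2.75-fold higher, a log2 ratio of 1.46 (1.25 to 1.67). Egln3, the most strongly hypoxia-inducible of the family, stood at 20.2 CPM (15.9 to 25.3, 76 UMIs) and 142 CPM (132 to 154, 635 UMIs), 7.06-fold higher, with a log2 ratio of 2.82 (2.47 to 3.18). Egln2 stood at 46.2 CPM (39.6 to 53.6, 174 UMIs) and 40.4 CPM (34.7 to 46.7, 180 UMIs), and the interval of its log2 ratio, -0.19 (-0.50 to 0.11), spanned 0. The counts of 2 floxed genes were thus higher in the library labelled PHDTiEC, and the third did not differ beyond counting error. Barcodes under 100 UMIs, which hold mostly free RNA, had Egln2 at 50.2 CPM in Cre- and 44.7 CPM in PHDTiEC, near its class levels. Free RNA was taken as 33.7% and 30.9% of EC UMIs. Over all alternatives, among them subtraction of free RNA, the log2 ratio of Egln2 lay between -0.30 and 0.69. UMIs were assigned to whole genes from 3′ ends. A transcript that lacks the floxed exons but keeps its 3′ end is counted like an intact one. These counts therefore do not show whether the alleles were recombined. In baseline kidneys of other mice, without ischemia, the paper reported by protein staining that PHD1, PHD2 and PHD3 were lost from PHDTiEC EC.

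Among the 10349 genes with at least 50 UMIs in the class, 1.18% were at least 2-fold higher and 2.71% at least 2-fold lower in the library labelled PHDTiEC. Of the 8 members that reached 50 UMIs, 2 were at least 2-fold higher, Egln1 and Egln3, and none was 2-fold lower. By size of the ratio Egln3 stood at place 14 and Egln1 at place 56 of all 10349 genes. Hif3a had 1 and 3 UMIs and no ratio is given for it. Leaving out the subclusters EC1 and EC3 described below, which carried tubule or macrophage markers, a choice made after seeing the data, gave log2 ratios of 1.56 for Egln1, 2.75 for Egln3 and -0.28 for Egln2. Without EC6 as well, which also held such markers, they were 1.65, 2.63 and -0.18, and 0.412% of genes were then at least 2-fold lower. When every barcode was weighted equally instead of by its UMIs, the log2 ratio of Egln3 was 1.87 and that of Egln1 was 1.25. The Egln3 value lies under the counting interval given above for the whole class.

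The UMIs of Egln3 were held by few barcodes. In the Cre- library 287 of 340 endothelial-like barcodes had no Egln3 UMI and the highest had 4. In the library labelled PHDTiEC 310 of 457 had none, 95 had 2 or more, 19 had 10 or more, and the highest had 23. For Egln1 the highest barcode held 6 UMIs in Cre- and 24 in PHDTiEC, and 21 PHDTiEC barcodes held 10 or more against 0 in Cre-. The share of barcodes with an Egln3 UMI was 15.6% (11.9% to 19.9%) in Cre- and 32.2% (27.9% to 36.7%) in PHDTiEC endothelial-like cells. Thinned to 2000 UMIs per barcode, which 287 and 390 barcodes reached, the shares were 4.84% and 17.6%. In macrophage-like cells, with medians of 6441 and 6747 UMIs, the unthinned shares were 0.385% and 0.485%, below those of endothelial-like cells.

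The alpha subunits differed less. Epas1, the member with the most UMIs in EC, stood at 538 CPM (515 to 562, 2027 UMIs) in Cre- and 542 CPM (521 to 564, 2418 UMIs) in PHDTiEC endothelial-like cells, with a log2 ratio of 0.01 (-0.07 to 0.10). Hif1a stood at 107.6 CPM (97.3 to 119) and 146.9 CPM (136 to 159), with a log2 ratio of 0.45 (0.27 to 0.63). That ratio was 0.21 when barcodes with few genes for their UMIs (log genes over log UMIs under 0.8) were left out. This filter kept 8468 Cre- and 9233 PHDTiEC barcodes of the whole kidney, and these were clustered and named again. The partner Arnt, which both alpha subunits need to bind DNA, stood at 26.0 CPM and 26.7 CPM, a log2 ratio of 0.04 (-0.36 to 0.44). Vhl, the recognition subunit of the ligase, stood at 14.1 CPM and 15.9 CPM, a log2 ratio of 0.18 (-0.36 to 0.72). Hif1an stood at 18.9 CPM (71 UMIs) and 13.0 CPM (58 UMIs), and its log2 ratio of -0.54 had an interval that ended just under 0 (-1.06 to -0.01). With 53 to 119 UMIs in a library, 2-fold differences of Arnt lay outside the interval of its ratio, and so did those of Vhl, whereas one of Hif1an in the lower direction did not.

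**Figure D1:**
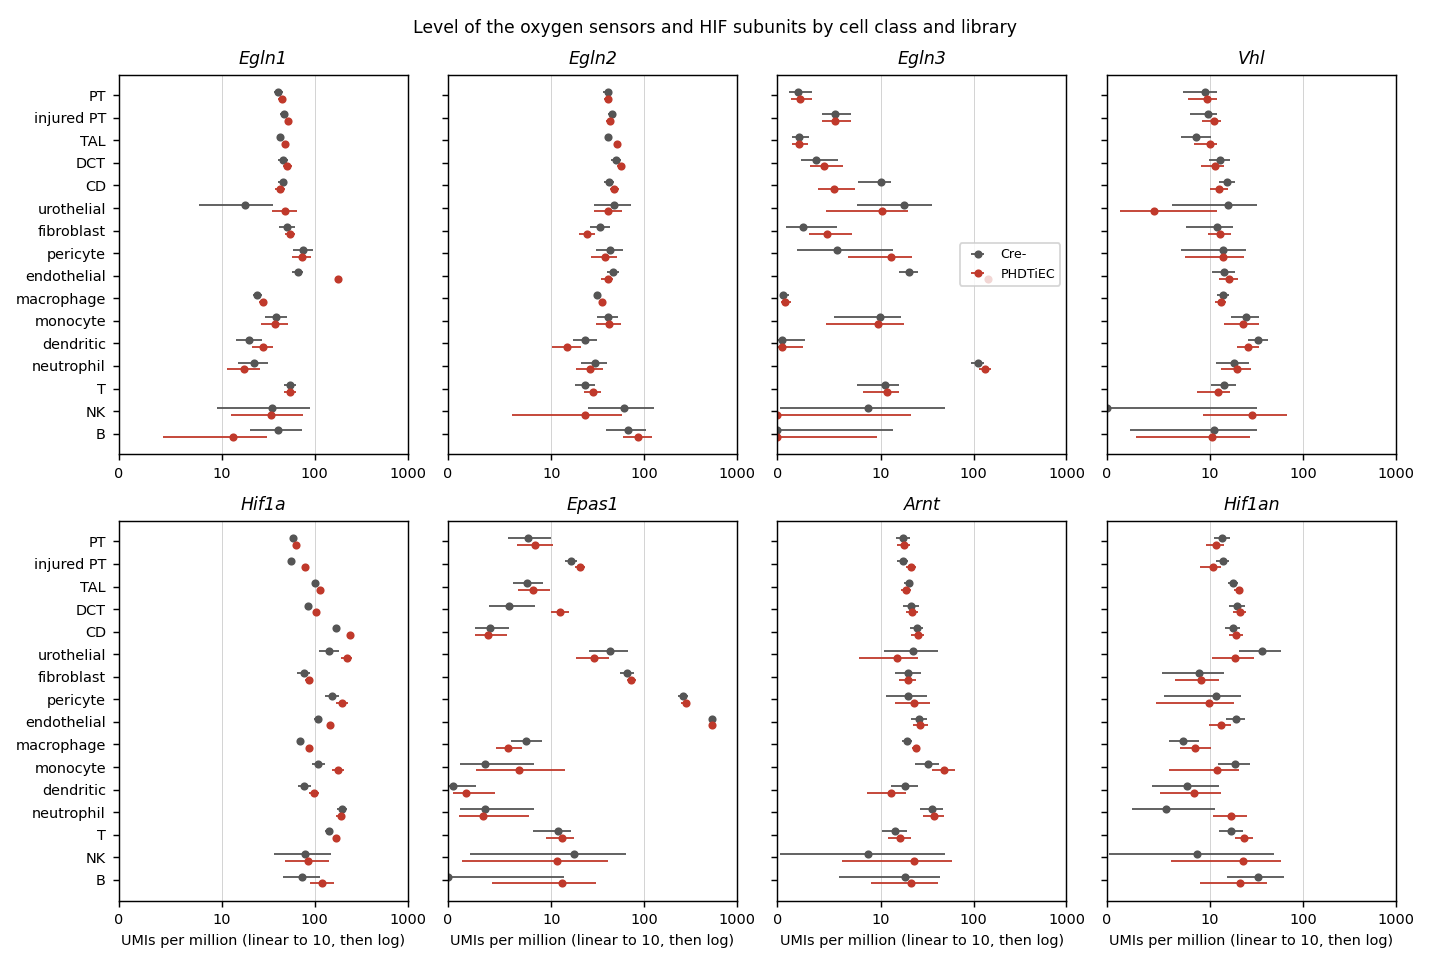
Level of 8 members in 16 cell classes, in CPM (x axis, linear to 10 and logarithmic above), with grey points for Cre-, red points for PHDTiEC and bars for 95% counting intervals. Endothelial-like cells stood apart between the libraries for Egln1 (65.3 and 179.9 CPM) and Egln3 (20.2 and 142 CPM), while Epas1 was at 538 and 542 CPM.

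The endothelial-like class was clustered again on its own, also without the members and lists, which gave 7 subclusters named here EC0 to EC6. EC0 (84 Cre- and 146 PHDTiEC barcodes) carried the markers of cortical renal EC (cREC-like). EC2 (59 and 123), led by Aqp1 and Hpgd, carried those of medullary renal EC (mREC-like). EC5 (42 and 35) scored highest on the same list, but its leading genes, Stmn2, Mgp and further down Jag1, Gkn3 and Bmx, hold genes known from arterial endothelium, so it was left unnamed. EC1 (42 and 30) held tubule markers and EC3 (27 and 26) macrophage markers. EC6 (23 and 38) was led by hemoglobin genes, with erythroid markers at 3115 and 7294 CPM, TAL markers at 2316 and 612 CPM and macrophage markers at 510 and 1076 CPM. EC4 (63 and 59) stayed unnamed. The shares of these subclusters differ between the libraries, so the pooled values above mix them in different proportions. EC1 held 32.6% of the class UMIs in Cre- and 18.4% in PHDTiEC, and EC2 held 22.3% and 41.1%.

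Egln3 was higher in the library labelled PHDTiEC in each of the 7 subclusters, with log2 ratios from 0.84 in EC0 to 4.31 in EC5, where the Cre- value rested on 1 UMI and 1 barcode held 12 of the 18 PHDTiEC UMIs (interval 1.65 to 9.69). In EC2 it stood at 28.6 CPM (24 UMIs) in Cre- and 240 CPM (440 UMIs) in PHDTiEC, a log2 ratio of 3.07 (2.48 to 3.73). In EC0 it stood at 58.1 CPM (23 UMIs) and 104 CPM (65 UMIs), a log2 ratio of 0.84 (0.14 to 1.60). The counting intervals of EC0 and EC2 do not overlap, but they leave out the spread between barcodes. EC0 had the highest Cre- level of Egln3 of any subcluster and EC2 the highest PHDTiEC level, and EC2 alone held 69.3% of the Egln3 UMIs of the PHDTiEC class.

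Egln1 followed the same order between these 2 subclusters. It stood at 75.0 CPM and 274 CPM in EC2, a log2 ratio of 1.87 (1.49 to 2.27), and at 73.3 CPM and 144 CPM in EC0, a log2 ratio of 0.98 (0.36 to 1.64), and these intervals overlapped. Its Cre- level lay between 48.5 and 75.0 CPM over the 7 subclusters, so the spread in PHDTiEC, from 73.1 CPM in EC1 to 274 CPM in EC2, was wider. In EC0 1.91% and in EC2 2.51% of genes with at least 50 UMIs were at least 2-fold higher in PHDTiEC. Egln2 had log2 ratios from -1.20 in EC4 (14 and 5 UMIs) to 0.77 in the macrophage-marked EC3 (10 and 15 UMIs). In EC2 its ratio was -0.28 (-0.88 to 0.35) and in EC0 0.69 (-0.28 to 1.74). All 7 intervals of Egln2 spanned 0.

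Hif1a in EC0 stood at 85.9 CPM (34 UMIs) and 176 CPM (110 UMIs), a log2 ratio of 1.04 (0.47 to 1.64), while EC2 held it at 137 and 174 CPM, with a ratio of 0.35 (0.04 to 0.67). EC5 was the exception, where it was lower in PHDTiEC (101 and 78.1 CPM), with an interval that spanned 0. Epas1 was most abundant in EC5, the unnamed subcluster led by Stmn2, at 1273 CPM and 1212 CPM, and lowest in the tubule-marked EC1 at 283 CPM and 184 CPM. It had an interval including 0 in EC0, EC2, EC4, EC5 and EC6. In EC1 and EC3, which carry markers of other cells, its log2 ratios were -0.62 (-0.90 to -0.34) and -0.95 (-1.40 to -0.52). In EC1 the TAL markers summed to 4843 and 2127 CPM and in EC3 the macrophage markers to 5479 and 7631 CPM in the 2 libraries. The part of these cells in the Epas1 values was not tested.

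**Figure D2:**
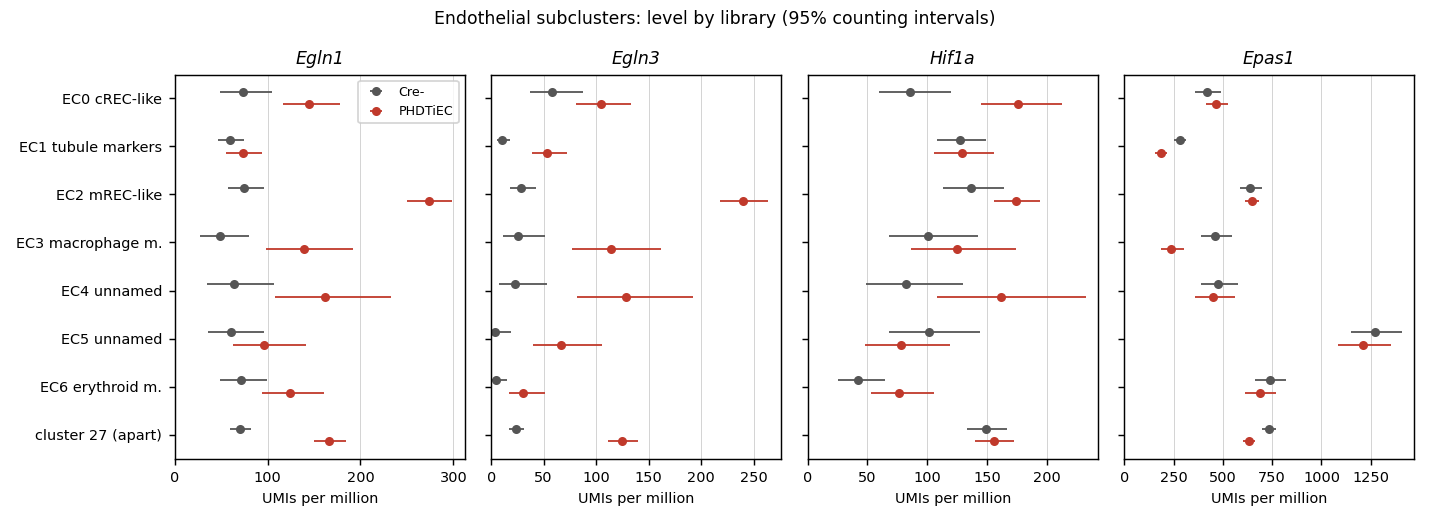
Level in CPM (x axis) of Egln1, Egln3, Hif1a and Epas1 in the 7 endothelial subclusters and in cluster 27, which was not part of the class, with grey points for Cre-, red points for PHDTiEC and bars for 95% counting intervals. EC2 is the highest red point for Egln1 (274 CPM) and for Egln3 (240 CPM), and EC5 is the highest for Epas1 in both libraries.

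Cluster 27 (92 and 106 barcodes) carried endothelial and mural markers together and was kept out of both classes. Its endothelial markers summed to 4234 and 3571 CPM and its pericyte markers to 7344 and 9349 CPM. There Egln1 stood at 70.3 and 166 CPM, a log2 ratio of 1.24 (0.97 to 1.52), and Egln3 at 23.4 and 125 CPM, with a ratio of 2.41 (1.98 to 2.88). The pericyte-like class (145 and 153 barcodes) had Egln1 at 75.4 and 73.1 CPM. Egln3 in pericyte-like cells rested on 5 and 13 UMIs, a log2 ratio of 1.15 (-0.43 to 2.99).

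Outside the endothelium, 86 pairs of a member and a named class reached 50 UMIs over 15 classes, and 2 of them, 2.33%, were at least 2-fold apart. Over all genes in the same classes 2.11% of gene and class pairs were that far apart in either direction, so the members as a group were near the background. The 2 pairs were Egln1 in the urothelial-like class and Epas1 in the distal convoluted tubule (DCT). In urothelial-like cells Egln1 rested on 8 and 42 UMIs from 24 Cre- and 35 PHDTiEC barcodes (log2 ratio 1.43, 0.32 to 2.73). Epas1 stood at 5.90 CPM (30 UMIs) and 12.5 CPM (91 UMIs) in DCT-like cells, a log2 ratio of 1.08 (0.47 to 1.73), where the median over all genes was 0.14. With every barcode weighted equally it was 0.42, and after subtraction of free RNA it was 1.81.

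For Egln1 the log2 ratio in the 13 other classes with 50 UMIs had a median of 0.12 and ran from -0.35 in neutrophil-like to 1.43 in urothelial-like cells. None of the 13 lay above the 1.46 of endothelial-like cells, although the urothelial-like interval covers it. Egln3 reached 50 UMIs in 6 other classes, and its log2 ratio there ran from -0.89 in the collecting duct (CD) to 0.28 in the DCT. In CD-like cells Egln3 was lower in the library labelled PHDTiEC, at 10.2 CPM (7.84 to 12.9, 65 UMIs) and 5.49 CPM (3.88 to 7.54, 38 UMIs), with an interval of the log2 ratio of -1.50 to -0.29. Egln2 had a median of 0.03 over 14 classes, with 8 higher and 6 lower.

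**Figure D3:**
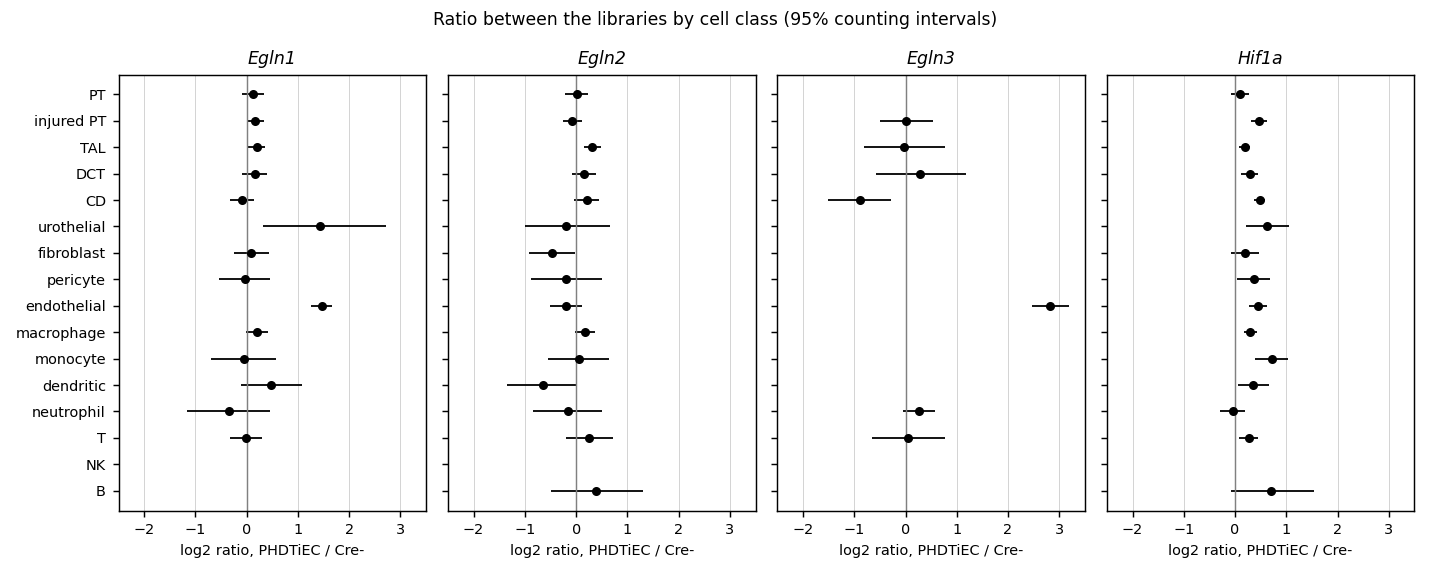
Log2 ratio of PHDTiEC over Cre- (x axis) for the 3 sensor genes and Hif1a in each named class with at least 50 UMIs, with bars for 95% counting intervals and a grey line at 0. Endothelial-like cells lie farthest to the right for Egln1 (1.46) and Egln3 (2.82), whereas Hif1a lies right of 0 in 13 of the 14 other classes shown.

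Hif1a showed a difference of another form, small and present in most classes. It was higher in the library labelled PHDTiEC in 13 of 14 other classes, with a median log2 ratio of 0.33, and its interval lay above 0 in 10 of them. Monocyte-like cells had the largest ratio, 0.71 (0.40 to 1.03), with 110 and 180 CPM, and neutrophil-like cells the smallest, -0.04 (-0.29 to 0.20), with 196 and 190 CPM. The 0.45 of endothelial-like cells was exceeded in 5 classes. Among the 1378 genes with 50 UMIs in the same 14 classes, 12.3% were higher in at least 13 and 5.66% had the interval above 0 in at least 10, so a shift of this kind was not rare in these libraries. In barcodes under 100 UMIs, which hold mostly free RNA, Hif1a stood at 106 CPM in Cre- and 116 CPM in PHDTiEC. The median mitochondrial share was 4.13% in the Cre- library and 3.07% in the other. The part of either in the Hif1a values was not tested.

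The levels across the kidney give each gene its own distribution. Epas1 was more confined than Hif1a. After endothelial-like cells it stood at 263 and 280 CPM in pericyte-like, 65.3 and 72.7 CPM in fibroblast-like and 42.6 and 28.7 CPM in urothelial-like cells, and the intervals of the first 3 of these classes did not overlap in either library, whereas those of the fibroblast- and urothelial-like classes did in Cre-. With a mitochondrial limit of 20% the pericyte-like class changed its members and Epas1 stood there at 603.5 and 532 CPM. Injured proximal tubule (PT) cells followed with 16.4 and 20.3 CPM, above uninjured PT with 7.71 and 8.45 CPM. The shares of barcodes with an Epas1 UMI were alike, 14.1% and 14.3% in injured and 13.7% and 16.1% in uninjured PT cells. Thinned to 2000 UMIs they were 2.35% and 2.93% against 1.29% and 1.39%. Single barcodes held up to 18 and 25 Epas1 UMIs in injured PT cells, against 3 in both libraries in uninjured PT cells. Dendritic-like cells were lowest with 0.48 and 1.78 CPM. Barcodes under 100 UMIs, which hold mostly free RNA, had Epas1 at 39.4 CPM in Cre- and 48.3 CPM in PHDTiEC, above every class from injured PT down. The part of free RNA in these low levels was not tested. Thinned to 2000 UMIs, 61.7% and 62.3% of endothelial-like barcodes had an Epas1 UMI, against 0.066% and 0.369% of dendritic-like barcodes, which were deeper (medians of 11051 and 10862 UMIs).

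Hif1a was found in every class, within a narrower range. CD-like cells had 170 and 238 CPM, neutrophil-like cells 196 and 190 CPM, urothelial-like cells 144 and 221 CPM and pericyte-like cells 153 and 197 CPM, and the levels of neighbours in this order crossed between the libraries, though in PHDTiEC the interval of CD-like cells (227 to 250) lay above that of neutrophil-like cells (168 to 213). The lowest values were those of PT cells, 59.1 and 63.3 CPM, and injured PT cells, 56.2 and 77.8 CPM. A pair of unnamed clusters is given beside the classes. Cluster 7, with markers of intercalated and principal cells and the deepest barcodes (medians of 37182 and 45563 UMIs), had 171 and 192 CPM. Cluster 1, led by Mmp12 and Gpnmb and carrying all 8 macrophage markers, had 128 and 135 CPM, against 69.9 and 86.1 CPM in the macrophage-like class.

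Epas1 levels also differed between the macrophage clusters, though all were low. It stood at 21.7 and 22.7 CPM in cluster 1 and at 16.4 and 9.45 CPM in the cycling cluster 2, with Mki67 among its leading genes. In clusters 3 and 9 it was at 6.75 and 5.00 CPM and at 4.45 and 5.01 CPM. The macrophage-like class, made of clusters 2, 3 and 9, held 103 and 84 Epas1 UMIs in all. Epas1 stood at 39.4 and 48.3 CPM in free RNA, which was taken as 5.29% and 5.32% of the UMIs of this class. Its part in these levels was not tested. Within the T-like class Hif1a levels differed between clusters. Cluster 15, led by Il17a and Trdc, had 202 and 218 CPM, and cluster 14, the other T-like cluster, had 124 and 154 CPM.

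Egln3 had the most uneven distribution of the sensors. In neutrophil-like cells it stood at 111 CPM (94.7 to 130, 156 UMIs) in Cre- and 133 CPM (115 to 153, 199 UMIs) in PHDTiEC, above the Cre- level of EC. Most of this came from cluster 11, with Il1b and Cxcl2 among its 10 leading genes, at 135 and 162 CPM, whereas cluster 12, with Retnlg and Stfa2l1 among them, had 37.8 and 45.8 CPM. The 2 clusters had similar depth, with medians of 1723.5 and 1746.5 UMIs in cluster 11 and 1915 and 1923.5 in cluster 12. In Cre- the class next below EC was the urothelial-like one, with 17.9 CPM (7.75 to 35.4, 8 UMIs), and its interval overlapped that of EC. Its PHDTiEC level was 10.3 CPM (4.72 to 19.6, 9 UMIs), where pericyte-like (12.8 CPM) and T-like cells (11.6 CPM) were higher. Macrophage-like cells held 8 and 10 Egln3 UMIs in all, and B-like cells none of 271181 and 380921 UMIs, which allows a level of up to 11.1 and 7.88 CPM.

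Egln1 and Egln2 were present in every class and varied less. In Cre- the highest level of Egln1 was in pericyte-like cells (75.4 CPM), then in endothelial-like (65.3 CPM) and T-like cells (54.6 CPM), neighbours whose intervals overlapped, and tubular classes lay between 40.7 and 46.2 CPM. Macrophage-like cells had 24.1 and 27.5 CPM. Egln2 was highest in B-like cells, at 66.4 CPM (18 UMIs) and 86.6 CPM (33 UMIs), and lowest in dendritic-like cells, at 23.2 and 14.7 CPM. Vhl ran the other way, with its highest values in dendritic-like cells, at 32.9 and 25.9 CPM, and 8.65 and 10.0 CPM in the TAL. Arnt was highest in monocyte-like (32.0 and 47.9 CPM) and neutrophil-like cells (35.7 and 37.4 CPM), and its other classes lay within 8.77 to 26.7 CPM. Hif1an stood at 17.7 to 20.7 CPM in the distal tubular classes (TAL, DCT and CD) and at 7.37 and 8.54 CPM in macrophage-like cells. In neutrophil-like cells it rested on 8 and 25 UMIs. Hif3a, the alpha subunit that lacks a strong activation domain, was found 18 times in Cre- and 12 times in PHDTiEC barcodes, with at most 3 UMIs in any class or cluster of a library except cluster 27, which held 5 and 2.

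Shares of UMIs among related genes were compared between classes, not between genes, since 3′ capture can differ by gene. Of the UMIs of the 3 PHD genes, Egln3 made up 15.3% (12.3% to 18.8%, 496 UMIs) in Cre- and 39.3% (36.9% to 41.7%, 1617 UMIs) in PHDTiEC endothelial-like cells, Egln1 made up 49.6% in both, and Egln2 35.1% and 11.1%. Neutrophil-like cells were the class with the highest Egln3 share, 68.4% (62.0% to 74.4%) and 75.4% (69.7% to 80.5%). In PT, TAL and DCT cells Egln3 held between 2.06% and 4.07%, Egln1 between 45.8% and 50.8% and Egln2 between 46.7% and 50.4%. Epas1 made up 83.3% (81.8% to 84.8%) of Epas1 plus Hif1a UMIs in Cre- and 78.7% (77.2% to 80.1%) in PHDTiEC endothelial-like cells. In pericyte-like cells the share was 63.2% and 58.7%, in fibroblast-like cells 46.0% and 45.3%, and in CD-like cells 2.33% and 1.61%. The CD-like shares rested on 26 and 27 Epas1 UMIs, where free RNA was taken as 21.2% and 18.9% of UMIs. Its part in them was not tested. EC5 and EC6 were the endothelial subclusters with the highest Epas1 share, at 92.6% and 94.6% in Cre-.

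**Figure D4:**
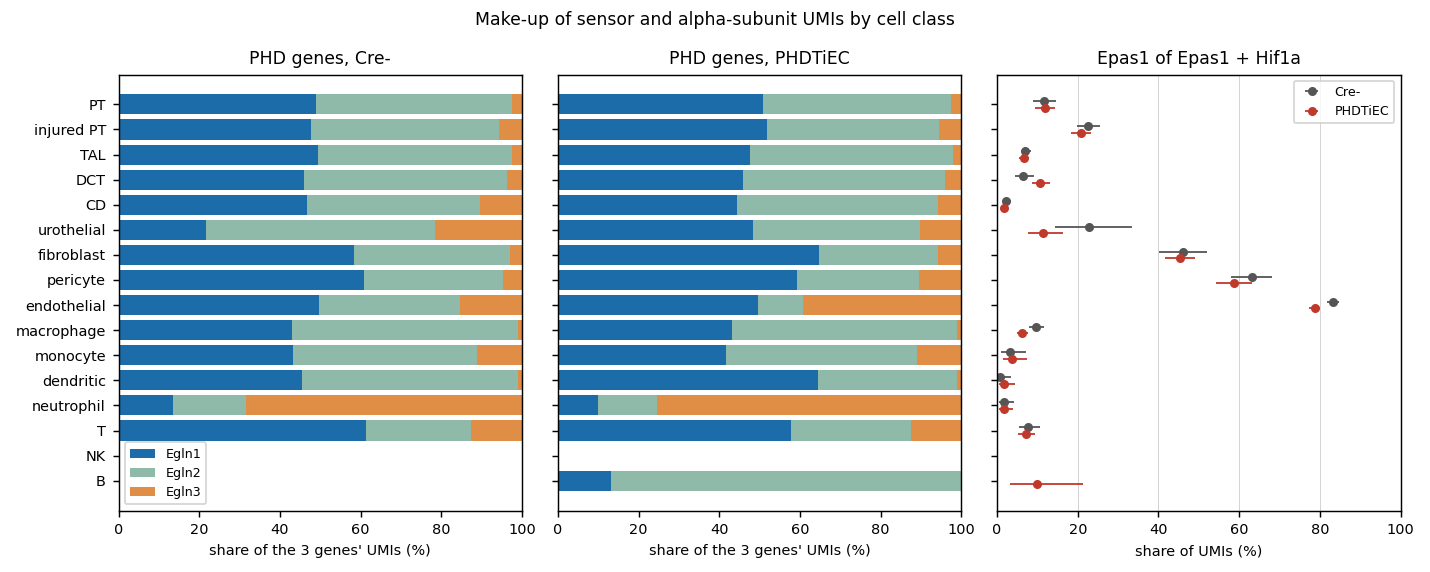
Left and middle, stacked shares (in %) of Egln1, Egln2 and Egln3 among their summed UMIs in each class of the Cre- and PHDTiEC libraries. Right, the share of Epas1 among Epas1 plus Hif1a UMIs, with 95% exact binomial intervals. Classes with under 30 UMIs of the genes are blank, Egln3 fills most of the neutrophil bars (68.4% and 75.4%), and endothelial-like cells have the highest Epas1 share (83.3% and 78.7%).

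The genes most like 4 of the members over the 48 pairs of a class or unnamed cluster and a library, by Pearson's r of log2(CPM + 1) among 11582 genes with at least 1000 UMIs, were listed as a description. The points share libraries and depth and are not independent. For Epas1 they were Ldb2 (r = 0.86), Adamtsl1 (r = 0.85) and Esam (r = 0.85). For Egln3 they were Ppp1r2 (r = 0.78), Lrg1 (r = 0.77) and Map2k3 (r = 0.77). Egln1 was most like Sox13 (r = 0.79), Camsap2 (r = 0.78) and Rdx (r = 0.76), and Hif1a like Cggbp1 (r = 0.75), Gm20186 (r = 0.73) and Btg2 (r = 0.71).

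The known targets of HIF were set beside the sensors in endothelial-like cells. Of 12 listed, 11 reached 50 UMIs, all 11 were higher in the library labelled PHDTiEC and 9 were at least 2-fold higher, against 1.18% of all genes, with a median log2 ratio of 1.95. The list was drawn up with results of these data known and is not independent evidence. Adm, which encodes the vasodilator adrenomedullin, stood at 8.76 and 96.7 CPM (log2 ratio 3.46, 2.95 to 4.02), and Ankrd37 at 9.03 and 92.9 CPM (3.36, 2.86 to 3.91). The lowest ratios were those of the histone demethylase Kdm3a (0.67, 0.29 to 1.06) and of Pdk1, a kinase that restrains pyruvate dehydrogenase (0.36, 0.03 to 0.69). By subcluster the summed targets stood at 493 and 2471 CPM in EC2, a log2 ratio of 2.33 (2.18 to 2.47), and at 563 and 1508 CPM in EC0, a ratio of 1.42 (1.21 to 1.64), the same order as for Egln3 and Egln1. The highest ratio, 2.58 (2.26 to 2.92), was that of the unnamed EC4.

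In the other named classes the target list did not show this. In 14 of 15 no target with 50 UMIs was 2-fold higher, and fibroblast-like cells had 1. The targets that reached 50 UMIs ran from 1 in NK-like and 2 in B-like cells to 10 in injured PT cells, against 11 in endothelial-like cells. Over all genes, 2.11% of gene and class pairs in these 15 classes were at least 2-fold apart in either direction. The summed targets had log2 ratios between -0.19 in fibroblast-like and 0.36 in urothelial-like cells. Hif1a was 1.40-fold higher in CD-like cells, where the summed targets had a log2 ratio of 0.09 (0.04 to 0.15). In monocyte-like cells, with the largest Hif1a ratio, the targets had 0.05 (-0.10 to 0.20).

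The remaining genes of the pathway mostly did not differ by much in endothelial-like cells. Of 28 genes in 6 lists, 23 reached 50 UMIs, 2 were at least 2-fold higher and none 2-fold lower, with a median log2 ratio of 0.04. Over all genes of the class, 1.18% were at least 2-fold higher and 2.71% at least 2-fold lower. The 4 partners of VHL in its ligase ran from -0.18 for Eloc (-0.34 to -0.02) and -0.18 for Cul2 (-0.61 to 0.25) to -0.04 for Elob and -0.01 for Rbx1. The genes of PHD turnover and binding ran from -0.12 for Siah1a and 0.04 for Fkbp8 to 0.06 for Os9 and 0.17 for Siah2, the ubiquitin ligase that targets PHD3, and all 4 intervals spanned 0. Of 5 coactivators and competitors 3 could be measured, from -0.30 for Cited2 (-0.46 to -0.14), which competes with HIF for coactivators, through 0.06 for Ep300 to 0.12 for Crebbp. Among factors related to HIF, the clock gene Arntl was at -0.62 (-1.23 to -0.03), Ahr at 0.10 and Clock at 0.20. The 4 genes that act on HIF stability outside VHL lay between -0.01 for Rack1 and for Sart1 and 0.09 for Hsp90aa1, with Hsp90ab1 at 0.04.

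Both genes past 2-fold belonged to the list of other oxygen-dependent hydroxylases. P4ha1 stood at 22.0 and 59.0 CPM (log2 ratio 1.42, 1.06 to 1.79) and P4ha2 at 21.5 and 46.7 CPM (1.12, 0.74 to 1.51). They encode the catalytic subunits of the enzyme that hydroxylates procollagen. The lowest of the list were Kdm5c (0.01, -0.40 to 0.42) and Kdm6a (0.25, -0.07 to 0.57), both histone demethylases.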

How the data were processed

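Single-cell libraries of postischemic kidney from 1 Cre- and 1 PHDTiEC mouse were analysed. The authors aligned reads to mm10 with Cell Ranger (version 4 in the file header) and deposited unfiltered matrices of UMI counts per gene and barcode, 136004367 and 146758812 UMIs in total. Barcodes with 500 to 100000 UMIs, at least 200 genes and at most 50% mitochondrial UMIs were kept. Clustering used scanpy 1.11.5 (2000 variable genes without members and lists, 20 components, 20 neighbours, Leiden resolution 0.8; EC again with 10 components at 0.3). A cluster took the name of the marker list with the highest score (over 0.4, 0.15 above the next, 3 markers in at least 10% of barcodes), unless its 10 leading genes held more markers of another list. No doublets were removed in the main settings, and no automatic score threshold was used. Leaving out the highest 5% of doublet scores (427 and 465 barcodes) was an alternative.

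UMIs were summed per class and library and divided by the class total (CPM). The difference is the log2 ratio of PHDTiEC over Cre-, counted over classes where both libraries together had 50 UMIs and otherwise shown with its interval. The ratio calculation was run on simulated class sums drawn as Poisson counts, which the intervals assume. The simulation held no barcodes and no free RNA, so it says nothing of the spread these add. A fold of 2 served as the call, without a test, since each genotype had 1 library. Thinned shares are expectations over draws of 2000 UMIs. A count of 0 was bounded at 3 counts. Gene positions are from GENCODE vM21 and promoter sequences from RefSeq GRCm38.p6, where 8 of the 9 members had an entry. TMM factors were from edgeR 4.0.16. The members and lists were chosen with earlier results of these data known. The text names all members, the highest and lowest 2 genes of each list in EC, and the 3 genes most like 4 members. Clusters 1, 2, 3, 7, 9, 11, 12, 14, 15 and 27 and the example classes were picked after their values were seen. Alternatives changed the filters, clustering, doublets, free RNA, scaling and weighting of barcodes. After each change of filter or doublets the barcodes were clustered and named again.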

Additional observations from a re-analysis of the deposited data

Results flagged for a closer look

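The log2 ratio of Egln3 between the libraries lay on opposite sides of 0 in 2 cell classes, beyond counting error in each. It was 2.82 (2.47 to 3.18) in endothelial-like cells and -0.89 (-1.50 to -0.29) in CD-like cells, where Egln3 rested on 65 UMIs in Cre- and 38 in PHDTiEC. With 1 library per genotype the difference between the classes was not tested.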

How the results depend on the processing

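No paired analysis was possible because each genotype had 1 library. In the endothelial-like class the log2 ratio of Egln1 lay between 0.98 and 1.87 and that of Egln3 between 0.84 and 3.31 over all alternatives. The extremes came from the subclusters. In EC2 and EC5 together, the subclusters taken by the mREC list, Egln1 had 1.82, Egln3 3.31 and Epas1 -0.16, although Epas1 had 0.02 in EC2 and -0.07 in EC5, since EC5, with the higher level, held 7.86% of class UMIs in Cre- and 6.03% in PHDTiEC while EC2 held 22.3% and 41.1%. EC2 alone (added later) gave Egln1 1.87 and Arnt -0.48. In cREC-like barcodes alone Egln1 had 0.98, Egln2 0.69, Egln3 0.84, Hif1a 1.04 and Epas1 0.15, with 1 member past 2-fold. Weighting barcodes equally gave Egln3 1.87 and turned Hif1a in DCT-like cells to -0.037. The ratio of Hif1a in EC was 0.21 with a complexity of at least 0.8, and 0.65 without EC1 and EC3 (an alternative added later). The ratio of Epas1 in EC was -0.10 with the complexity filter, -0.094 with all variable genes, -0.087 at resolution 0.4, -0.080 with 30 components, -0.076 without EC1 and EC3 and -0.087 with cluster 27 added (also later).

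The level of Epas1 in EC (Cre- and PHDTiEC) was 613 and 570.0 CPM with the complexity filter, 611 and 576 at resolution 0.4, 632 and 609 at resolution 1.2, 598 and 566 with 30 components, 652 and 639 without high doublet scores, 568 and 581 with equal weights, and 792 and 763 after ambient subtraction, while the Cre- level alone moved to 598 with all variable genes and 573 without mitochondrial and ribosomal RNA genes. The level of Egln3 in EC was 25.8 and 158 CPM at resolution 1.2, 29.8 and 169.9 without high doublet scores, 29.1 and 107 with equal weights, and 27.5 and 203 after ambient subtraction, which took free RNA as 33.7% and 30.9% of EC UMIs. Pericyte-like Epas1 was 603.5 and 532 CPM at a mitochondrial limit of 20%.

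In the other classes the number of member and class pairs past 2-fold was 1 under the mitochondrial limit of 20%, 1000 UMIs, all variable genes, resolution 1.2, 30 components, the doublet, mitochondrial-gene, TMM and median-of-ratios settings, 0 at resolution 0.4, 3 with equal weights and 5 after ambient subtraction. Hif1a was higher in 8 of 9 classes at resolution 0.4, 9 of 11 without high doublet scores and 11 of 14 with equal weights. Averaged over barcodes, the Egln3 share was 29.8% in EC and 65.9% in neutrophil-like cells of PHDTiEC, and the Epas1 share in EC 76.0%. The percentage of genes past 2-fold in EC was 2.68% higher and 6.15% lower from 10 UMIs, 1.04% lower from 200 UMIs, 4.32% and 7.49% past 1.5-fold, and 1.19%, 0.412% and 1.07% lower without EC1 and EC3, without EC6 too, and with cluster 27. Except where named, causes were not tested. Classes of few barcodes (urothelial-, NK- and B-like) limit the low genes by depth.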
